A study of Homo sapiens with 36 samples.

Results

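The genes described here are 58 nuclear genes for subunits of the respiratory chain and the ATP synthase, the machinery of oxidative phosphorylation. They were taken by name, as the rows of the deposited count table whose Ensembl identifiers carry 58 listed symbols, by a rule that uses no measured value, although the list was drawn up with earlier results of these data known. All 58 were found among the 74628 genes of the table and all 58 passed the filter on low counts, which left 27553 genes for testing. They comprised 23 genes of complex I, 4 of complex II, 9 of complex III, 11 of complex IV and 11 of complex V. NDUFA4, long listed with complex I, was counted in complex IV, where its protein sits. A further 20 nuclear subunit genes were kept apart as a separate list.

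The cells were Jurkat, an established human T lymphocyte line, carrying a stable dCas9-VP64 activator (a Cas9 that does not cut DNA, fused to a transcriptional activation domain) and labelled mCherry+. All groups shared this line, a medium with fetal bovine serum and sodium pyruvate, transduction with a pXPR-based lentiviral guide vector and 3 days of puromycin selection. The guide was either non-targeting (sgControl) or directed at RELA (sgRELA), which encodes the p65 subunit of NF-κB, and cells were taken on day 5, day 6 or day 7 after transduction. Each of the 6 groups held 3 biological replicates, and each RNA was made into 2 RamDA-seq libraries (a full-length method that reads total RNA) from 100 pg of RNA, which gave 36 libraries. Transductions were made in triplicate, but the labels do not say whether the samples of different days came from the same cultures, so the p-values measure the spread between these samples. The line is a single stable cell line, and the labels do not say whether it is 1 clone.

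Respiratory complexes I, III and IV pass electrons from NADH to oxygen and pump protons out of the mitochondrial matrix, complex II feeds in electrons from succinate, and complex V uses the proton gradient to make ATP. Complexes I, III, IV and V each combine subunits encoded in the nucleus with subunits encoded in mitochondrial DNA, while complex II is encoded wholly in the nucleus. Nuclear subunit genes are known as targets of NRF1, GABPA (also called NRF2) and YY1 and of coactivators of the PGC-1 family, and activated T cells raise mitochondrial gene expression as they grow.

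Library totals ran from 7586205 to 16124473 counts, with a median of 12052035, and the sums of the 2 libraries of an RNA sample from 18769530 to 29503934. RELA stood at 24.0 to 33.3 CPM (the count as a share of the library total after TMM scaling, group means) with sgControl and at 127.2 to 293.7 CPM with sgRELA, so the labels of the guides held. All 13 markers of T lymphocytes were measured, at mean levels of 29.6 to 747.7 CPM. Their summed level was 2636 to 3022 CPM in sgControl on day 5, 2850 to 3598 on day 6 and 3756 to 3868 on day 7. With sgRELA it was 2828 to 2972, 3180 to 3427 and 4005 to 4042 CPM. The part of this rise in the results on days was not tested. Of 4 B cell markers only CD79A passed 1 CPM, with sums of the 4 of 16.5 to 26.2 CPM in sgControl and 48.4 to 62.7 in sgRELA, and the part of that difference in any result between guides was not tested. The 4 myeloid and 3 epithelial markers all had mean levels under 1 CPM. In single RNA samples ITGAM reached 2.896, CSF1R 2.355, KRT8 1.547 and LYZ 1.122 CPM. Of 3 fibroblast markers COL1A2 was at 0. Sums of the 3 on days 5, 6 and 7 were 4.88 to 8.60, 7.36 to 15.4 and 5.52 to 6.75 CPM in sgControl. In sgRELA they were 4.80 to 12.6, 10.6 to 13.8 and 4.20 to 6.03. Library 1 of sgControl day 5 replicate 2 and library 1 of sgControl day 6 replicate 1 had the fewest detected genes, 25398 and 26526, and counts of members called are given without them as well.

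The members were expressed in all 5 complexes, with a wide range inside each. The median level, in CPM per kilobase of the median annotated transcript, was 40.9 for complex I, 69.1 for complex II, 62.4 for complex III, 78.8 for complex IV and 81.5 for complex V. ATP5F1B, the catalytic β subunit of the ATP synthase, was the highest of the 58 at 409.9 CPM per kilobase, and ATP5F1E, the ε subunit of the same enzyme, was the lowest of complex V at 12.7. COX4I1, a core nuclear subunit of cytochrome c oxidase, led complex IV at 168.0 CPM per kilobase, above NDUFA4 at 19.2. In complex III the range ran from UQCRH, the hinge protein, at 165.6 down to UQCR10 at 2.96. NDUFA10 led complex I at 131.4, and NDUFS7, which holds the last iron-sulfur cluster before ubiquinone, was at 3.49. In complex II the membrane anchor SDHC was highest at 99.7 and the iron-sulfur subunit SDHB lowest at 40.6. These values depend on the transcript length assumed for each gene, and counts per member were never below 28 in any RNA sample (UQCR10).

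Promoter sequence was examined for motifs of NRF1, GABPA and YY1, which are known to act on nuclear subunit genes. The part of these factors in the changes between days was not tested. RefSeq promoters of GRCh38.p14 (250 bases before to 50 after the annotated start) were matched by symbol for 48 of the 58 members; CYC1, COX6C, NDUFB5, SDHC, NDUFA4, NDUFB9, NDUFC2, ATP5F1B, ATP5MC3 and UQCRB had no entry. A match to the NRF1 motif GCGCANGCG on either strand was present in 17 of 48 members (35.4%) and in 9.02% of 27305 genes with a promoter. The GABPA motif CCGGAAG was present in 17 members (35.4%) against 12.2% of all genes, and the YY1 motif AANATGGCG in 14 (29.2%) against 3.85%. In all, 34 of 48 members (70.8%) held at least 1 of the 3 motifs, against 21.5% of all genes. NRF1 matches on opposite strands can overlap at a palindrome, and YY1 matches often fall after the start, where the letters include ATG. These are letter matches in a short window and say nothing of binding.

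The NRF1 matches below belong to members whose change between days was called with both guides, with the motif in capitals and the strand of the gene given. SDHA held 4 copies of the same 9 letters at even spacing before its RefSeq start. In the GENCODE annotation the gene begins at 218241, so the copies shown at 218242-218270 and 218291-218319 lie after that base.

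SDHA, chr5:218144-218172, + strand: ggtccgctttGCGCAGGCGcggcgccccc

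SDHA, chr5:218193-218221, + strand: gtggcatggtGCGCAGGCGcgatgtcccc

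SDHA, chr5:218242-218270, + strand: ccggcgtggtGCGCAGGCGcggtatcccc

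SDHA, chr5:218291-218319, + strand: ccggtgtggtGCGCAGGCGcagtctgcgc

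ATP5F1C, chr10:7788145-7788173, + strand: gggagcttcgGCGCATGCGcgctgaggcc

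NDUFA9, chr12:4649025-4649053, + strand: tcttggttagCGCTTGCGCagacaggcga

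UQCRC1, chr3:48609640-48609668, - strand: gcccagtctaCGCTTGCGCggcgcaacag

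UQCRFS1, chr19:29213163-29213191, - strand: cgcctcctcgCGCCTGCGCcgtggttgga

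In ATP5F1C the motif is read on the strand of the gene, as in SDHA, and in NDUFA9, UQCRC1 and UQCRFS1 the capitals show it on the opposite strand. NDUFA9 also held a YY1 match just after its start:

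NDUFA9, chr12:4649114-4649142, + strand: attgtgggaaAAGATGGCGgctgccgcac

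Members with and without calls both held the motifs. Of the 33 members called in at least 1 comparison of days, 26 had a promoter entry and 20 of these held 1 of the 3 motifs, and of the 25 never called, 22 had an entry and 14 held one. The members called at least once also had more counts, with a median of 53.0 against 34.6 CPM, and longer transcripts, with a median of 861 against 614 bases.

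The first comparison of days asked how the subunit genes stood on day 6 against day 5 within each guide. Their summed level was lower on day 6, and 15 of the 58 with sgControl and 5 with sgRELA fell by the test. The 58 members summed to 4801 ± 57.9 CPM on day 5 and to 3964 ± 101.1 CPM on day 6 with sgControl, and to 4721 ± 46.9 and 4145 ± 74.0 CPM with sgRELA (SD, n = 3 each). The 3 sums of day 6 lay below all 3 of day 5 with both guides. By edgeR's quasi-likelihood test with Benjamini-Hochberg adjustment over all genes tested, called at an adjusted p under 0.05, 15 members fell and none rose in sgControl, where 5.58% of all genes were called lower and 3.29% higher. With sgRELA 5 members fell and none rose, where 4.34% of all genes were called lower and 2.57% higher.

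The median log2 fold change of the members was -0.30 with sgControl and -0.12 with sgRELA, and the medians of all genes were 0.04 and 0.03. In sgControl 53 of 58 members had a lower estimate on day 6, and in sgRELA 45. Sums of members are relative to all RNA counted, so less RNA from these genes per cell and more from others cannot be told apart. The day of harvest also cannot be told apart from a batch of handling, because the labels name no batch.

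**Figure D1:**
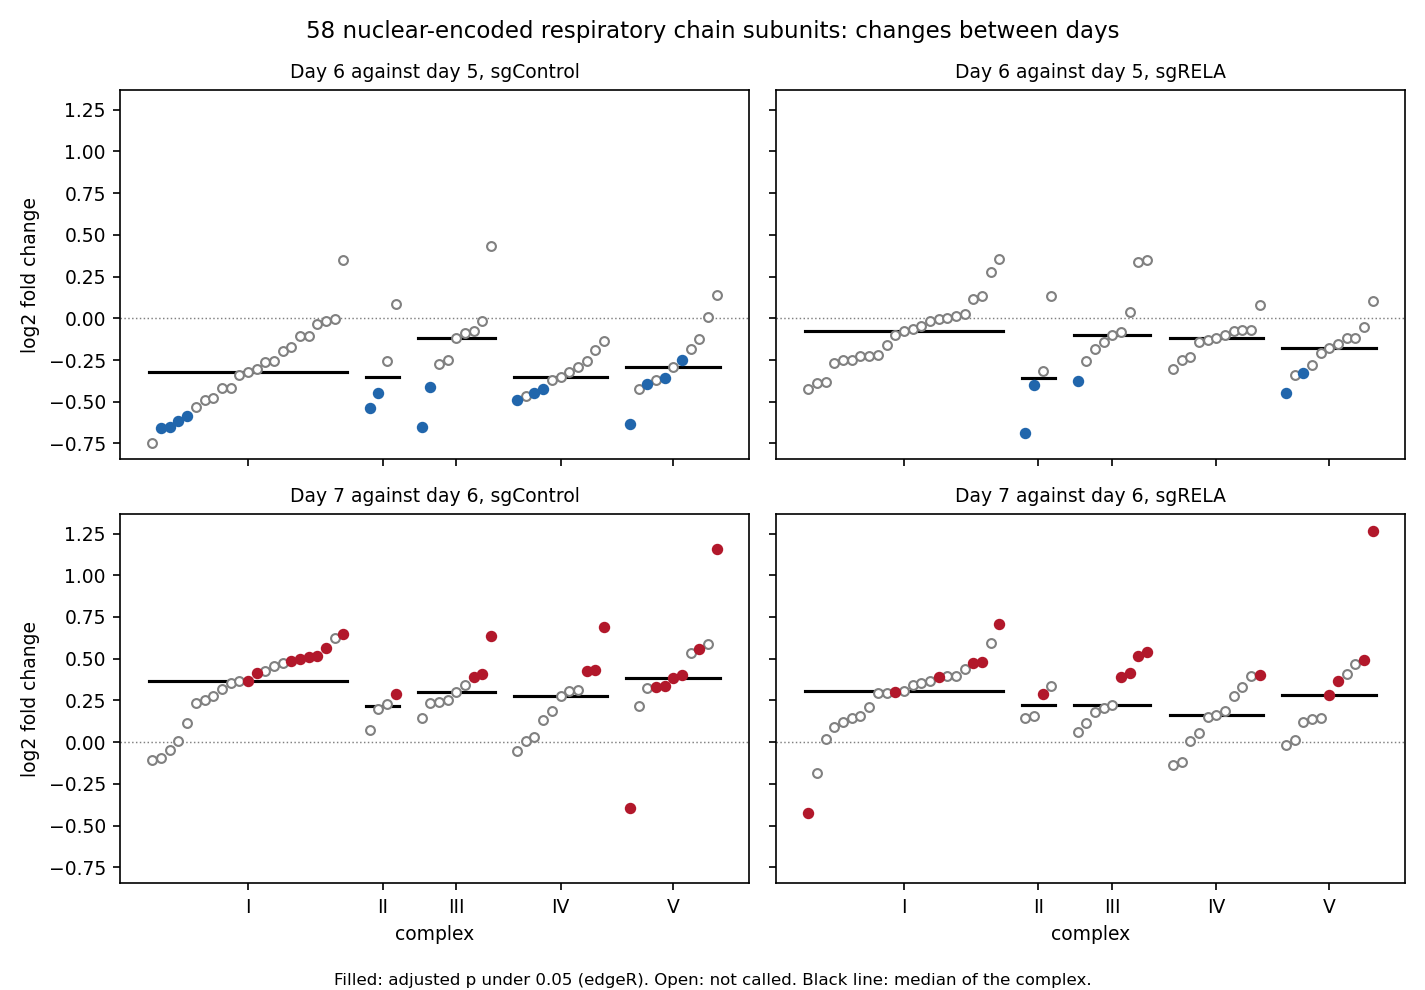
Each point is 1 of the 58 members, ordered by value within its complex, with its log2 fold change on the vertical axis for day 6 against day 5 (top) and day 7 against day 6 (bottom) in sgControl (left) and sgRELA (right); filled points had an adjusted p under 0.05 by edgeR and black lines are medians of a complex. Most points lie below 0 in the top panels and above 0 in the bottom panels, where ATP5MC1 is the highest point and ATP5MC2 (sgControl) and NDUFB5 (sgRELA) are the filled points below 0.

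The median of each complex was below 0 on day 6. With sgControl the median log2 fold change was -0.32 in complex I (4 of 23 called), -0.35 in complex II (2 of 4), -0.12 in complex III (2 of 9), -0.35 in complex IV (3 of 11) and -0.29 in complex V (4 of 11), and all 11 genes of complex IV had estimates below 0. With sgRELA the medians were -0.08, -0.36, -0.10, -0.12 and -0.18 in the same order, with 0, 2, 1, 0 and 2 members called. Differences between complexes were not tested.

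With both guides 4 genes were called lower on day 6, namely SDHA, UQCRC1, ATP5F1B and ATP5F1C, which is 26.7% of the sgControl calls and 80.0% of the sgRELA calls. The guides agreed in the sign of the estimate for 46 of 58 members. The shares of all genes called with both guides or agreeing in sign are not given here. Agreement between guides is therefore not shown to be particular to the members.

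ATP5F1B (chr12, 56638175 to 56646068 on GRCh38, protein coding), the β subunit that carries the catalytic sites of the ATP synthase, was the most abundant member. With sgControl its 3 samples stood at 782.2, 795.1 and 836.5 CPM on day 5, at 580.2, 656.4 and 599.3 on day 6, and at 785.7, 810.9 and 826.7 on day 7. With sgRELA they stood at 840.4, 831.5 and 822.8 on day 5, at 652.7, 657.7 and 674.1 on day 6, and at 813.3, 811.3 and 792.4 on day 7. Day 6 was the low day with both guides, with no sample of day 6 reaching any of day 5 or day 7. From day 5 to day 6 the log2 fold change was -0.39 ± 0.06 (SE) with sgControl (edgeR adjusted p 3.76e-05) and -0.33 ± 0.06 with sgRELA (edgeR adjusted p 0.000439).

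ATP5F1C encodes the γ subunit, the rotating shaft of the same enzyme. Its samples stood at 119.3, 97.1 and 122.1 CPM on day 5, 66.0, 75.98 and 76.5 on day 6 and 93.5, 91.1 and 90.6 on day 7 with sgControl. With sgRELA they stood at 104.3, 93.1 and 105.6, then at 69.9, 69.6 and 82.8, then at 95.8, 97.9 and 92.7 CPM. The samples of day 6 lay below all others of the same guide, as in ATP5F1B. The log2 fold change from day 5 to day 6 was -0.63 ± 0.11 with sgControl (edgeR adjusted p 0.00016) and -0.45 ± 0.11 with sgRELA (edgeR adjusted p 0.00681), where the call was lost without day 6 replicate 2 (edgeR adjusted p 0.0529). ATP5F1A, the α subunit, fell by 0.25 with sgControl (edgeR adjusted p 0.025), and ATP5PB, a subunit of the peripheral stalk, fell by 0.36 (edgeR adjusted p 0.0291).

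SDHA, the flavoprotein that oxidises succinate, is the member with the 4 NRF1 matches above. Its values were 172.4, 167.7 and 208.0 CPM on day 5, 126.0, 141.3 and 134.6 on day 6 and 162.3, 170.7 and 157.9 on day 7 with sgControl. With sgRELA they were 170.3, 185.8 and 187.7, then 144.3, 137.1 and 130.6, then 174.0, 152.0 and 177.9 CPM. Again no sample of day 6 reached any other day. SDHA fell by 0.45 ± 0.09 with sgControl (edgeR adjusted p 0.00162) and by 0.40 ± 0.09 with sgRELA (edgeR adjusted p 0.00534). The sgRELA call was lost with library 1 alone (edgeR adjusted p 0.138) and with library 2 alone (0.17). In sgControl it was lost with library 1 alone (0.0806). The level of SDHA is uncertain, because rows named as its pseudogenes held counts equal to 89.8% of its own and the handling of reads with several matches is not given in the sources used here. The 2 pseudogenes with counts, SDHAP1 and SDHAP4, had log2 fold changes of -0.27 and 0.04 in the same sgControl comparison and were called in neither guide.

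Other genes of complex II differed between the guides in whether they were called. SDHB, the iron-sulfur subunit, fell by 0.54 with sgControl (edgeR adjusted p 0.0026), and its estimate with sgRELA was -0.31 (edgeR adjusted p 0.111). SDHD, a membrane anchor, fell by 0.69 with sgRELA (edgeR adjusted p 0.000618), and its estimate with sgControl was -0.26 (edgeR adjusted p 0.249). The sgRELA samples of SDHD moved from 62.0, 68.5 and 68.6 CPM on day 5 to 39.2, 45.0 and 39.4 on day 6, while those of sgControl were 56.3, 58.3 and 68.3 and then 56.1, 48.1 and 48.9. For SDHD the test of a guide effect that changes with the day had an unadjusted p of 0.0544 and an adjusted p of 1 by edgeR, so the difference between guides did not pass. Rows named as pseudogenes of SDHD held counts equal to 10.8% of its own. Among them SDHDP4 moved the other way in sgRELA, with a rise of 1.43 from day 5 to day 6 (edgeR adjusted p 0.0161). SDHDP2 (0.53) and SDHDP6 (-0.20) were not called in that comparison. From day 5 to day 7 in sgRELA SDHDP4 rose by 2.00 (edgeR adjusted p 0.000396). The part of shared reads in the values of SDHD was not tested. SDHD held both an NRF1 and this GABPA match, shown with the motif in capitals on the opposite strand:

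SDHD, chr11:112086786-112086812, + strand: cgcctctcgaCTTCCGGttcacccagc

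UQCRC1, a core subunit of complex III, stood at 139.1, 150.3 and 129.9 CPM on day 5 and at 125.2, 92.9 and 97.7 on day 6 with sgControl. With sgRELA it stood at 132.6, 133.2 and 119.9 and then at 90.95, 108.7 and 97.4. Day 6 lay below day 5 without overlap in both. The log2 fold change was -0.41 with sgControl (edgeR adjusted p 0.0111) and -0.38 with sgRELA (edgeR adjusted p 0.0242). With scaling by total counts the adjusted p by edgeR was 0.0596 and 0.0704. Leaving out sgControl day 5 replicate 2 (0.0537), day 6 replicate 2 (0.0616) or day 6 replicate 3 (0.0519) ended the call in that guide, as did leaving out sgRELA day 5 replicate 1 (0.075) or 2 (0.0816) or day 6 replicate 1 (0.125) or 3 (0.0837) in the other. CYC1, the cytochrome c1 of the same complex, fell by 0.65 with sgControl (edgeR adjusted p 0.00452) from 28.7, 38.6 and 35.7 to 22.2, 23.7 and 19.7 CPM.

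In complex I, NDUFV2, a subunit of the NADH-oxidising module, fell by 0.59 ± 0.13 with sgControl (edgeR adjusted p 0.00335). NDUFB8, NDUFA12 and NDUFA5, accessory subunits, fell by 0.66, 0.65 and 0.61, and rows named as pseudogenes of NDUFA5 held counts equal to 16.02% of its own. In complex IV, COX7C, COX6C and NDUFA4 fell by 0.49, 0.45 and 0.42 with sgControl. None of these genes of complexes I and IV was called with sgRELA, and the difference between guides did not pass the test for any of the 58.

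These counts changed with the libraries used and with the scaling. With library 1 of each RNA alone 2 members were called in sgControl and 0 in sgRELA, with library 2 alone 7 and 4, and with scaling by total counts 9 and 4, while the medians were -0.38, -0.19 and -0.22 in sgControl and -0.13, -0.17 and -0.07 in sgRELA. Without the mitochondrially encoded genes in the table, an alternative chosen after seeing the data, 15 and 5 were called and the medians were -0.31 and -0.13. Without the 2 libraries with few detected genes 17 and 7 were called.

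Between day 6 and day 7 the summed level of the subunit genes went back up, and 21 of the 58 with sgControl and 15 with sgRELA rose by the test. The members summed to 4852 ± 124.6 CPM on day 7 with sgControl and to 4877 ± 57.9 CPM with sgRELA (SD, n = 3 each), and all sums of day 7 lay above all of day 6. In sgControl 1 member fell beside the 21 that rose by edgeR, where 8.25% of all genes were called higher and 6.31% lower. In sgRELA 1 fell beside the 15 that rose, where 7.21% of all genes were called higher and 5.02% lower. The median log2 fold change of the members was 0.33 with sgControl and 0.29 with sgRELA, beside -0.07 and -0.06 for all genes, and 53 of 58 estimates were above 0 with each guide. This comparison shares its day 6 samples with the comparison of day 6 against day 5.

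**Figure D2:**
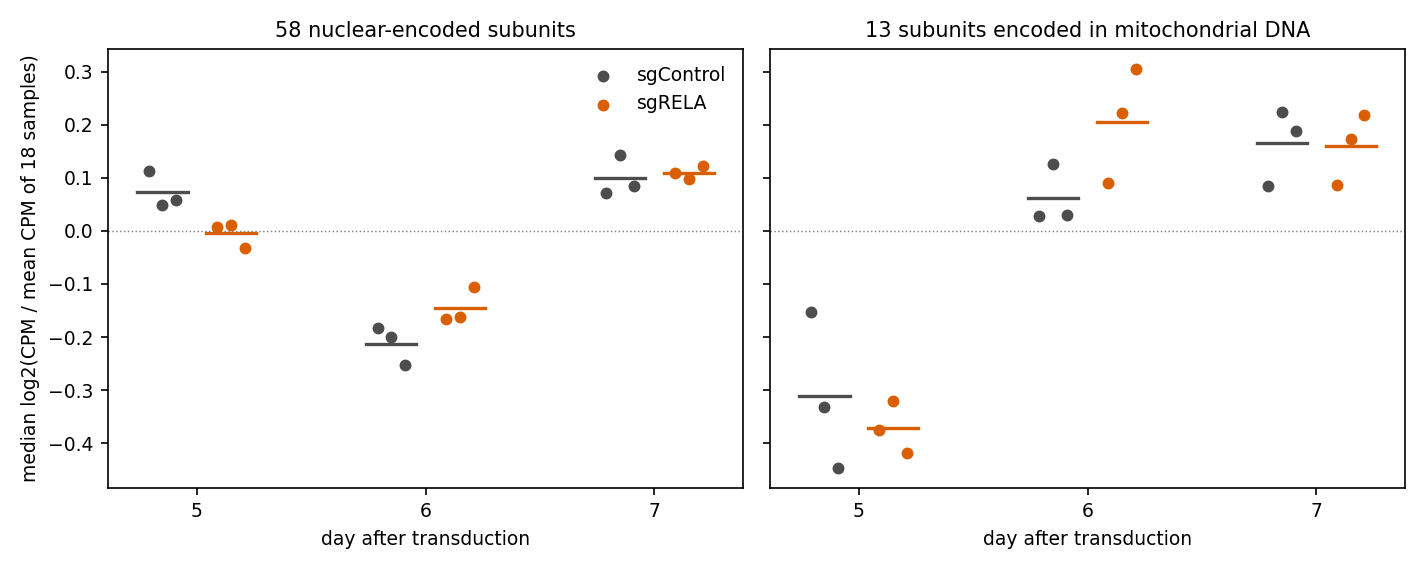
Each point is 1 RNA sample (2 libraries added), plotted by day and guide, and the vertical axis is the median over genes of the log2 ratio of the sample's CPM to the mean CPM of the 18 samples, for the 58 nuclear members (left) and the 13 subunits encoded in mitochondrial DNA (right); bars are means of 3. The nuclear members are lowest on day 6, with group means of -0.21 and -0.14, and the mitochondrially encoded subunits are lowest on day 5.

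By complex, the median log2 fold change from day 6 to day 7 with sgControl was 0.37 in complex I (8 of 23 called higher), 0.22 in complex II (1 of 4), 0.30 in complex III (3 of 9), 0.28 in complex IV (3 of 11) and 0.38 in complex V (6 of 11 higher and 1 lower). With sgRELA the medians were 0.31, 0.22, 0.22, 0.16 and 0.28, with 5, 1, 4, 1 and 4 called higher and 1 gene of complex I called lower. All 9 genes of complex III had estimates above 0 with both guides. With both guides 10 genes rose, namely NDUFV2, NDUFB9, NDUFA9, SDHA, CYC1, UQCRFS1, ATP5F1B, ATP5F1C, ATP5MC1 and ATP5MC3, which is 45.5% of the sgControl calls and 62.5% of the sgRELA calls. The sign of the estimate was the same with both guides for 54 of 58 members. As for day 6 against day 5, the matching shares of all genes are not given here.

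NDUFV2 returned from 36.0, 49.3 and 51.6 CPM on day 6 to 62.7, 56.5 and 75.7 on day 7 with sgControl, and from 49.8, 45.7 and 52.8 to 69.4, 62.5 and 74.5 with sgRELA. All samples of day 7 lay above all of day 6. It rose by 0.51 ± 0.13 (edgeR adjusted p 0.00627) and 0.48 ± 0.13 (edgeR adjusted p 0.0126). Without sgControl day 7 replicate 3 the sgControl call was lost (edgeR adjusted p 0.0693). Without sgRELA day 6 replicate 2 or day 7 replicate 3 so was that of sgRELA (0.0745 and 0.0714). Library 1 alone also ended both calls (edgeR adjusted p 0.0605 in sgControl and 0.671 in sgRELA), and library 2 alone that of sgControl (0.136).

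NDUFA9, which helps join the membrane and matrix arms of complex I, stood at 67.2, 68.0 and 58.4 CPM on day 6 and at 73.5, 85.2 and 91.2 on day 7 with sgControl, and at 71.1, 63.9 and 57.8 and then 80.0, 84.4 and 88.1 with sgRELA. It rose by 0.37 (edgeR adjusted p 0.0189) and 0.39 (edgeR adjusted p 0.0148). With scaling by total counts neither call held (edgeR adjusted p 0.111 and 0.0611). The call was also lost without sgControl day 6 replicate 3 (0.107), day 7 replicate 2 (0.0687) or day 7 replicate 3 (0.119), and without sgRELA day 6 replicate 2 (0.0538), day 6 replicate 3 (0.116) or day 7 replicate 3 (0.0723). NDUFB9, an accessory subunit of the membrane arm, rose by 0.41 (edgeR adjusted p 0.0146) and 0.48 (edgeR adjusted p 0.00497), with samples between 42.9 and 50.5 CPM on day 6 and between 59.0 and 67.6 on day 7 with sgControl, and between 39.2 and 49.8 and then 59.6 and 65.2 with sgRELA. The NDUFB9 call was lost in sgControl with scaling by total counts (edgeR adjusted p 0.0826) and without day 6 replicate 2 (0.0624) or day 7 replicate 2 (0.0956), and in sgRELA without day 6 replicate 3 (0.0526). From day 5 to day 6 the estimates of NDUFA9 were -0.17 and -0.04 and those of NDUFB9 were -0.10 and -0.22, and none of these was called.

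UQCRFS1, the Rieske iron-sulfur protein of complex III, stood at 70.4, 69.7 and 65.9 CPM on day 6 and 88.1, 90.7 and 95.1 on day 7 with sgControl. With sgRELA it stood at 68.5, 75.4 and 69.5 and then at 90.7, 100.6 and 93.7. The samples of day 7 also lay above those of day 5, which ran from 74.6 to 85.8 CPM over both guides. No gene of complex III, UQCRFS1 included, was called from day 5 to day 7 with either guide. The rise from day 6 was 0.41 ± 0.10 with sgControl (edgeR adjusted p 0.00316) and 0.42 ± 0.10 with sgRELA (edgeR adjusted p 0.00331). Both calls of UQCRFS1 were lost with library 1 alone (edgeR adjusted p 0.586 and 0.407). CYC1 rose by 0.64 (edgeR adjusted p 0.00279) to 35.2, 34.1 and 32.7 CPM with sgControl, and by 0.54 (edgeR adjusted p 0.0134) from 23.9, 24.3 and 23.3 to 38.1, 35.0 and 30.8 with sgRELA. The sgRELA call of CYC1 was lost without day 6 replicate 3 (edgeR adjusted p 0.0524) or day 7 replicate 1 (0.0871).

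SDHA rose by 0.29 with each guide (edgeR adjusted p 0.0318 and 0.0354). These calls were lost with scaling by total counts (edgeR adjusted p 0.177 and 0.128) and with no filter on low counts (0.0652 and 0.0873). They were also lost without any 1 of sgControl day 6 replicates 1 and 3 and day 7 replicates 1 and 2 (0.0647 to 0.13), or of sgRELA day 6 replicates 2 and 3 and day 7 replicates 1 and 3 (0.101 to 0.163). ATP5F1B rose by 0.40 ± 0.06 (edgeR adjusted p 8.58e-06) and 0.28 ± 0.06 (edgeR adjusted p 0.001), and ATP5F1C by 0.33 (edgeR adjusted p 0.0307) and 0.37 (edgeR adjusted p 0.019). For both genes the values of day 7, given above, lay above all values of day 6.

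Among the members called with sgControl alone, COX5A, a subunit of cytochrome c oxidase, rose by 0.69 ± 0.14 (edgeR adjusted p 0.000721) and NDUFB10 by 0.65 (edgeR adjusted p 0.00592). With sgRELA alone, NDUFB8 rose by 0.71 and UQCRC1 by 0.51 ± 0.11 (edgeR adjusted p 0.00078), to 141.2, 149.8 and 133.1 CPM. In sgControl UQCRC1 had an estimate of 0.30 (edgeR adjusted p 0.0518).

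NDUFB5, an accessory subunit of complex I, was the only member called lower from day 6 to day 7 with sgRELA. Its samples stood at 58.2, 45.9 and 55.9 CPM on day 6 and 37.6, 43.1 and 38.6 on day 7. In sgControl they stood at 46.5, 43.4 and 43.7 and then at 39.5, 44.6 and 39.8, and the groups overlapped. The log2 fold change with sgRELA was -0.42 ± 0.13 (edgeR adjusted p 0.0349), and the call was lost without sgRELA day 6 replicate 1 (edgeR adjusted p 0.169), day 6 replicate 3 (0.122), day 7 replicate 1 (0.137) or day 7 replicate 3 (0.109).

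The number of members called from day 6 to day 7 fell from 22 to 13 or 14 in sgControl when any 1 of the 3 day 7 samples was left out, and from 16 to 8, 10 or 9 in sgRELA without day 6 replicate 2, day 6 replicate 3 or day 7 replicate 3. With scaling by total counts it was 10 with each guide and the medians were 0.23 and 0.21. That scaling also moved the median of all genes by -0.10 in sgControl. Library 1 alone gave 6 and 1 calls with medians of 0.36 and 0.26, and library 2 alone gave 11 and 9 with medians of 0.38 and 0.22.

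The share of calls among members was set beside that of genes at their level. Between the quartiles of the members' mean level, 25.6 to 79.3 CPM, lay 4238 genes, 28 of them members. From day 5 to day 6 in sgControl 12.2% of these genes and 8 of the 28 members were called lower, and in sgRELA 9.46% and 1 of 28. From day 6 to day 7, 19.4% and 12 of 28 were called higher in sgControl and 17.2% and 6 of 28 in sgRELA. So with sgRELA the share of these 28 members called from day 5 to day 6 was not above that of genes of similar level. SDHA, UQCRC1, ATP5F1B and ATP5F1C, the members called lower with both guides, are not among the 28. Their mean levels of 161.1, 123.9, 753.8 and 91.3 CPM lay above the range, so this comparison does not cover them. The 6 of 28 members called higher from day 6 to day 7 with sgRELA were also near the 17.2% of such genes.

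Transcript length moved with the same comparisons. The members are short, with a median of 759.5 bases against 2537 for all protein-coding genes tested. The 527 protein-coding genes no longer than that had median log2 fold changes of -0.09 from day 5 to day 6 and 0.10 from day 6 to day 7 with sgControl, and of 0.00 and 0.08 with sgRELA. After subtraction of the trend with length over protein-coding genes, the members' medians were -0.24 and 0.30 with sgControl and -0.10 and 0.20 with sgRELA. The number of genes detected per library was 26526 to 28609 on day 6, 25398 to 27657 on day 5 and 26605 to 27758 on day 7 with sgControl. With sgRELA it was 27371 to 29057, 27336 to 28127 and 27184 to 27927, and the part of library quality in the result was not tested. The members' share of counts in single libraries was 0.405% to 0.426% on day 6 with sgControl, below the 0.441% to 0.504% of day 5 and the 0.459% to 0.487% of day 7. With sgRELA it was 0.416% to 0.441%, against 0.446% to 0.494% and 0.457% to 0.486%. No library of day 6 overlapped those of another day with the same guide.

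From day 5 to day 7 few members differed. With sgControl 2 members were called higher and 2 lower, where 6.65% of all genes were called higher and 6.36% lower. With sgRELA 4 were higher and 1 lower, where 6.35% and 6.06% of all genes were. The members' median log2 fold changes were 0.03 and 0.14, beside -0.01 for all genes with each guide. In sgControl the sign of that median turned between library sets, at -0.06 with library 1 alone and 0.13 with library 2 alone. ATP5MC1 and ATP5MC3 were called higher with both guides. The other calls were COX7C (-0.48, edgeR adjusted p 0.00123) and ATP5MC2 (-0.39, edgeR adjusted p 0.0346) in sgControl, and NDUFS1 (0.28), NDUFA9 (0.35, edgeR adjusted p 0.033) and SDHD (-0.53, edgeR adjusted p 0.00457) in sgRELA. COX7C stood at 89.2, 79.6 and 88.5 CPM on day 5, 58.9, 61.6 and 62.9 on day 6 and 66.9, 60.5 and 56.8 on day 7 in sgControl, and its estimate from day 6 to day 7 was 0.01 (edgeR adjusted p 0.983).

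The 3 genes of the c-ring gave different values over the days, and the differences between them were not tested. ATP5MC1, ATP5MC2 and ATP5MC3 encode the same mature protein, subunit c, which forms the rotating ring of the ATP synthase in the inner membrane, and differ in the targeting peptide that is removed on import. ATP5MC1 (chr17, 48892765 to 48895871 on GRCh38) had a level of 20.6 CPM per kilobase, against 116.9 for ATP5MC2 and 194.1 for ATP5MC3. Its samples stood at 6.71, 12.7 and 9.11 CPM on day 5, 10.7, 5.18 and 6.16 on day 6 and 18.2, 16.3 and 14.6 on day 7 with sgControl, and at 7.30, 8.24 and 11.6, then 6.93, 8.01 and 6.48, then 17.6, 18.9 and 15.02 with sgRELA. All samples of day 7 lay above all of days 5 and 6.

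ATP5MC1 was 2.23-fold higher on day 7 than on day 6 with sgControl (log2 1.16 ± 0.27, edgeR adjusted p 0.00249) and 2.40-fold higher with sgRELA (log2 1.26 ± 0.27, edgeR adjusted p 0.0012). Against day 5 the log2 fold changes on day 7 were 0.78 (edgeR adjusted p 0.0479) and 0.92 (edgeR adjusted p 0.018). The call against day 5 in sgControl was lost without the 2 libraries with few detected genes (edgeR adjusted p 0.0703), with scaling by total counts (0.0621) and without any 1 of sgControl day 5 replicates 1 and 3 and the 3 day 7 replicates (0.066 to 0.229). In sgRELA it was lost without day 5 replicate 1 (0.103), day 5 replicate 2 (0.0753), day 7 replicate 1 (0.0546) or day 7 replicate 2 (0.0747).

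ATP5MC3 (chr2, 175176258 to 175184607) stood at 145.8, 153.0 and 142.3 CPM on day 5, 131.1, 132.0 and 141.3 on day 6 and 181.1, 205.6 and 209.5 on day 7 with sgControl. With sgRELA it stood at 143.6, 156.6 and 151.0, then at 140.9, 139.0 and 156.1, then at 209.2, 191.5 and 211.8. Day 7 was the high day, and days 5 and 6 were close. The log2 fold change from day 6 to day 7 was 0.56 ± 0.09 with sgControl (edgeR adjusted p 1.19e-05) and 0.49 ± 0.09 with sgRELA (edgeR adjusted p 0.0001). From day 5 to day 7 it was 0.44 with each guide (edgeR adjusted p 0.000552 and 0.000484). The calls from day 5 to day 7 were lost with library 1 alone (edgeR adjusted p 0.478 and 0.152).

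ATP5MC2 (chr12, 53632726 to 53677408) had no call with sgRELA. It stood at 117.8, 97.9 and 100.2 CPM on day 5, 132.8, 97.4 and 87.8 on day 6 and 72.0, 91.0 and 78.8 on day 7 with sgControl, and at 100.5, 107.0 and 106.0, then 82.0, 87.5 and 88.6, then 78.9, 90.8 and 90.1 with sgRELA. The value of 132.8 belonged to sgControl day 6 replicate 1, the RNA sample whose library 1 had few detected genes. From day 6 to day 7 ATP5MC2 fell by 0.39 with sgControl (edgeR adjusted p 0.0268) and had an estimate of 0.01 with sgRELA (edgeR adjusted p 0.982). Without that replicate the sgControl estimate was -0.17 (edgeR adjusted p 0.41), and without the 2 libraries with few detected genes it was -0.12 (edgeR adjusted p 0.563), so that call rested on 1 library. Leaving out sgControl day 7 replicate 1 or 3 ended it too (0.154 and 0.0935). The call against day 5 in sgControl was lost as well without the 2 libraries (edgeR adjusted p 0.0501), and without sgControl day 5 replicate 1 (0.188), day 7 replicate 1 (0.173) or day 7 replicate 3 (0.0996).

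**Figure D3:**
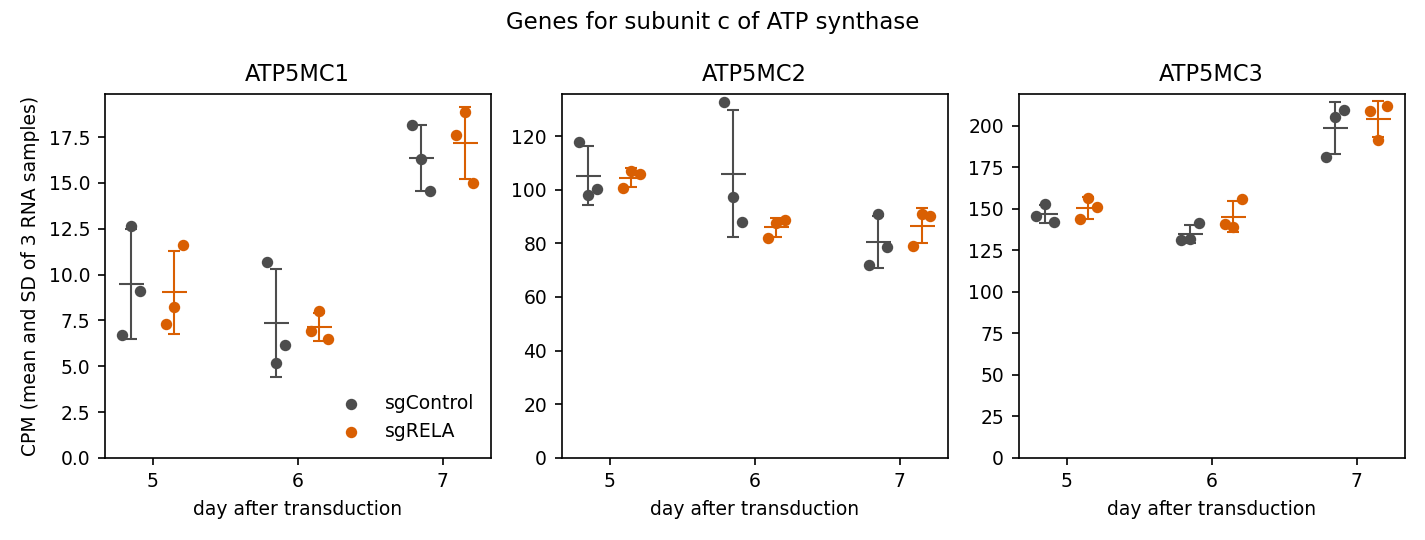
CPM of ATP5MC1, ATP5MC2 and ATP5MC3 (vertical axes start at 0 and differ between panels) in each RNA sample by day and guide, with bars at means of 3. ATP5MC1 and ATP5MC3 are highest on day 7 with both guides, while ATP5MC2 is not, and its highest point is sgControl day 6 replicate 1.

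The promoter of ATP5MC1 held no match to the NRF1, GABPA or YY1 motif, and that of ATP5MC2 held an NRF1 match. ATP5MC1 held the cAMP response element TGACGTCA, a motif that reads the same on both strands and was looked for only after its sequence had been seen. It was present in 3 of 48 members (6.25%) and in 2.25% of all genes with a promoter. The 228 bases before the annotated first base of ATP5MC1 are shown with that motif in capitals, and the ATP5MC2 window with its NRF1 match, on the opposite strand, in capitals.

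ATP5MC1, chr17:48892537-48892764, + strand: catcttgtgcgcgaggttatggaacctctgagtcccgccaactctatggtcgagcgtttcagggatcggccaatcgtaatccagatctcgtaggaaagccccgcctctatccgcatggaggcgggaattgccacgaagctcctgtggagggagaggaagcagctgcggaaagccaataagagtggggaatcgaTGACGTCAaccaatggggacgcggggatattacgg

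ATP5MC2, chr12:53676106-53676134, - strand: gcccgggtcaCGCATGCGCtgagccttcc

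The comparison of guides asked whether RELA activation moved the subunit genes. No member was called. By edgeR 0 of 58 members passed on day 5, where 0.138% of all genes did, 0 on day 6 (0.214%), 0 on day 7 (0.0907%) and 0 in the mean of the 3 days (0.388%). The test of whether the guide effect differed between days called 0 members and 0.00363% of all genes. At an unadjusted p under 0.05 there were 3, 5, 0, 0 and 0 members, and DESeq2 also called 0 members in each. The smallest adjusted p of any member by edgeR was 0.692 in the comparisons of guides and 1 in the test between days.

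In the mean of the 3 days the members' log2 fold changes, sgRELA over sgControl, ran from -0.24 to 0.15 with a median of 0.01, beside 0.00 for all genes, and their median SE was 0.08. The medians on days 5, 6 and 7 were -0.06, 0.06 and 0.02, and that of day 5 turned sign between library sets, at -0.14 with library 1 alone and 0.03 with library 2 alone. The members with the smallest p were SDHB (-0.28 ± 0.12, edgeR adjusted p 0.751) and NDUFA4 (-0.31 ± 0.13, edgeR adjusted p 0.766) on day 5, and ATP5MC2 (-0.30 ± 0.12, edgeR adjusted p 0.692) and SDHD (-0.31 ± 0.13, edgeR adjusted p 0.702) on day 6. On day 7 they were COX7C (0.19) and SDHD (-0.22), and in the mean of the 3 days SDHC and SDHD (-0.14 each, edgeR adjusted p 0.745). SDHD and NDUFB7 had the smallest p between days (unadjusted 0.0544 and 0.0636). A p that misses the threshold does not show that the guides gave equal levels.

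**Figure D4:**
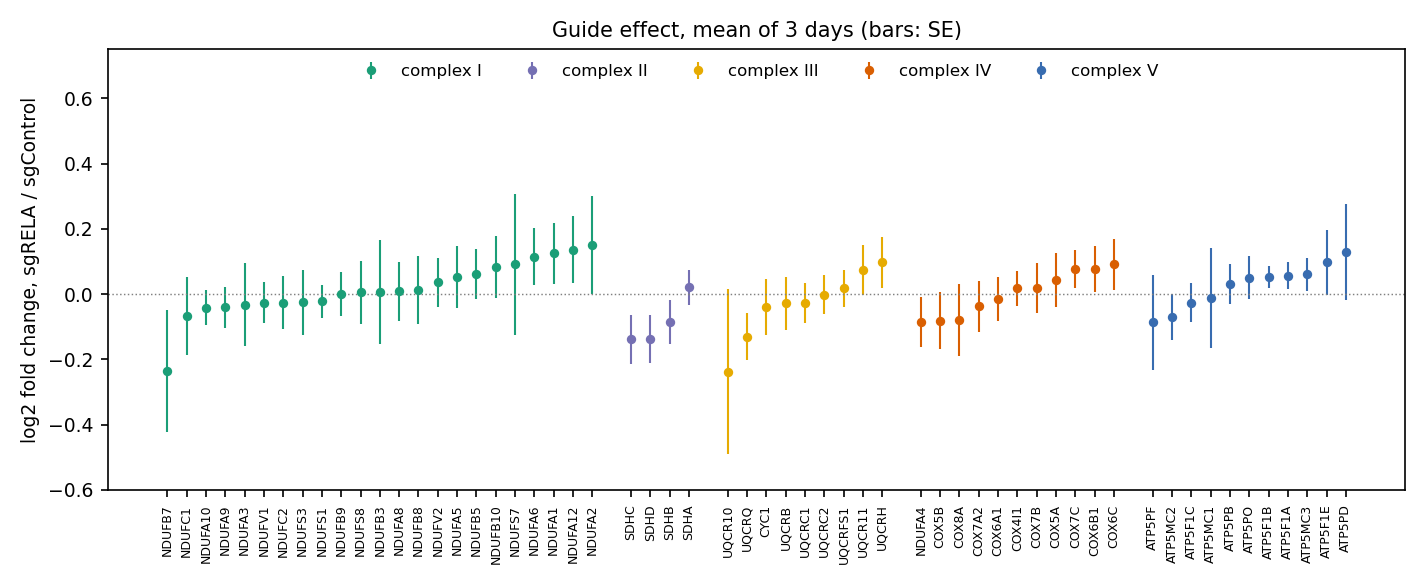
Log2 fold change of sgRELA over sgControl in the mean of the 3 days (vertical axis) for each of the 58 members (horizontal axis, coloured by complex), with bars of 1 SE. The estimates lie between -0.24 and 0.15 and none was called.

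The 13 subunits encoded in mitochondrial DNA, which join the nuclear subunits in complexes I, III, IV and V, moved the other way from day 5 to day 6. With sgControl 10 of 13 rose and none fell, and with sgRELA 12 rose and none fell. Beside these, 3.29% and 2.57% of all genes were called higher. Their median log2 fold changes were 0.40 and 0.51, beside 0.04 and 0.03 for all genes. All 13 estimates were above 0 with each guide. MT-CYB, the cytochrome b of complex III, went from 2209, 2026 and 2005 CPM on day 5 to 3005, 3293 and 3065 on day 6 with sgControl, and from 2077, 2180 and 2083 to 3511, 3706 and 3906 with sgRELA, with no overlap. In the same complex, the nuclear UQCRC1 fell with both guides and CYC1 with sgControl, as given above. With library 1 alone the mitochondrial list had 0 calls and a median of 0.17 in sgControl, and 5 calls and 0.55 in sgRELA. Without the 2 libraries with few detected genes it had 11 and 13 calls.

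From day 6 to day 7 the mitochondrially encoded list was mixed, with 4 genes higher and 2 lower in sgControl and 2 higher and 4 lower in sgRELA. The shares of all genes were 8.25% higher and 6.31% lower in sgControl, and 7.21% and 5.02% in sgRELA. MT-CO1, the catalytic subunit of cytochrome c oxidase, fell by 0.54 ± 0.05 with sgControl (edgeR adjusted p 5.73e-10) and by 0.57 ± 0.05 with sgRELA (edgeR adjusted p 2.55e-10). MT-ATP6, the proton channel subunit of the ATP synthase, rose by 0.48 with sgControl (edgeR adjusted p 8.01e-06), and its estimate with sgRELA was 0.13 (edgeR adjusted p 0.273). On day 6, MT-ATP6 (0.32, edgeR adjusted p 0.0401) and MT-CYB (0.25, edgeR adjusted p 0.0387) were higher with sgRELA than with sgControl. No mitochondrially encoded subunit was called in this comparison with scaling by total counts, without the 2 libraries with few detected genes, with either library set alone, or without sgControl day 6 replicate 1 or 3 or sgRELA day 6 replicate 2 or 3, and the median of the list stayed between 0.11 and 0.28. These 13 genes held 2.95% to 4.89% of counts in single libraries.

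Other genes of the pathway were counted from lists. Of 12 regulators tested (of 13 listed), 3 fell from day 5 to day 6 with sgControl and 1 with sgRELA, and 7 and 6 rose from day 6 to day 7, with none called the other way. Beside these, 5.58% and 4.34% of all genes were called lower and then 8.25% and 7.21% higher. The 1 regulator that fell with sgRELA is a share near that of all genes. PPRC1, a coactivator of the PGC-1 family, fell by 0.48 (edgeR adjusted p 0.0038) and fell by 0.59 (edgeR adjusted p 0.000531) and then rose by 1.00 (edgeR adjusted p 4.15e-08) and 1.28 (edgeR adjusted p 4.64e-10) with sgControl and sgRELA. TFAM, which packages and transcribes mitochondrial DNA, rose from day 6 to day 7 by 0.83 (edgeR adjusted p 6.22e-06) and 0.77 (edgeR adjusted p 2.59e-05). PPARGC1B, another PGC-1 coactivator, rose by 0.94 (edgeR adjusted p 0.000145) and 0.75 (edgeR adjusted p 0.00213). The medians of the list were -0.25 and -0.27 from day 5 to day 6 and 0.43 and 0.37 from day 6 to day 7.

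Of the 20 other nuclear subunits, 1 fell with each guide from day 5 to day 6 and none rose, a share near the 5.58% and 4.34% of all genes. From day 6 to day 7, 7 rose and 1 fell with sgControl, beside 8.25% of all genes called higher and 6.31% lower. In the same days 6 rose and none fell with sgRELA, beside 7.21% of all genes called higher and 5.02% lower. NDUFS5 and NDUFS6, accessory subunits of complex I, rose by 0.68 and 0.86 with sgControl and by 0.64 and 0.75 with sgRELA. From day 5 to day 7, 3 of these 20 were called higher and 2 lower with sgControl, and 8 higher and 1 lower with sgRELA. The shares of all genes were 6.65% higher and 6.36% lower, and 6.35% and 6.06%. The median log2 fold changes of the 20 were 0.27 and 0.39. Of 47 assembly factors tested (of 49), 7 rose with each guide from day 6 to day 7 and none fell. Over the same days 8.25% of all genes were called higher with sgControl and 7.21% with sgRELA. The assembly factors that rose included COA7 (0.83 with each guide), which acts in cytochrome c oxidase assembly, and NDUFAF8 (1.24 and 1.10). Earlier, from day 5 to day 6, 1 assembly factor rose and 1 fell with sgControl, and 1 fell with sgRELA. These shares were not above those of all genes, 3.29% higher and 5.58% lower with sgControl and 4.34% lower with sgRELA. Of the 8 tissue or condition isoforms 3 were tested and 0 were called in any comparison of days by edgeR. At an unadjusted p under 0.05 there were 0 to 3 of them in a comparison of days, and DESeq2 called 1, from day 6 to day 7 with sgRELA.

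Among 13 genes of the tricarboxylic acid cycle, which supplies the electrons, 1 fell from day 5 to day 6 with sgControl and 4 with sgRELA, and 3 and 4 rose from day 6 to day 7. The shares of all genes were 5.58% and 4.34% lower and 8.25% and 7.21% higher, and the 1 gene that fell with sgControl is a share near the first of these. FH, fumarate hydratase, fell by 0.62 (edgeR adjusted p 0.000802) and by 0.65 (edgeR adjusted p 0.000486) and then rose by 0.83 (edgeR adjusted p 4.57e-06) and 0.82 (edgeR adjusted p 7e-06). CS, citrate synthase, rose by 0.59 and 0.55 from day 6 to day 7. The medians of the list were -0.18 and -0.35 from day 5 to day 6 and 0.20 and 0.27 from day 6 to day 7. No gene of the regulator, assembly factor, tricarboxylic acid cycle or other subunit lists was called between guides on any day or in the mean of the 3 days by edgeR or DESeq2, with 0 to 4 genes per list and comparison at an unadjusted p under 0.05.

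Across the 3 days, the signs of the estimates went down and then up for 50 members with sgControl, for 43 with sgRELA and for 41 with both. Both steps use the same day 6 samples. Of the 58 members 33 were called in at least 1 of the 6 comparisons of days and 25 in none. The shares of all genes with these signs, or with at least 1 such call, are not given here. In single comparisons of days 6.91% to 14.6% of all genes were called. Rows named as pseudogenes of 40 of the members, picked by symbol alone, numbered 138, with a median of 1.33% of the member's counts. The pseudogene counts passed 10% for 5 members (SDHA, ATP5PD at 23.8%, NDUFA5, NDUFA3 at 14.7% and SDHD), whose levels are therefore less certain.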

How the data were processed

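Raw gene counts of 36 libraries were deposited by the authors as 1 table. Reads were trimmed with cutadapt 1.18 and aligned with STAR 2.7.9a to GRCh38, per the submitters' processing notes, while the counting tool, annotation release, strand setting and handling of reads with several matches are not given in the sources used here. Groups came from the sample titles. The 2 library replicates of an RNA sample were added, giving 18 sums (18769530 to 29503934 counts). CPM are counts over the library total, scaled by TMM. In R 4.3.3, edgeR 4.0.16 fitted 6 group means over all 18 sums after filterByExpr (27553 genes), tested by quasi-likelihood with Benjamini-Hochberg adjustment over all genes, and called genes at an adjusted p under 0.05. DESeq2 1.42.0 was an alternative, and the steps were tested on simulated data. Other alternatives were other size factors, no filter, each library set alone, a replicate block and leaving out samples. Further ones (no mitochondrially encoded genes, and protein-coding genes alone) were added after seeing the data. Gene coordinates, gene types and median transcript lengths came from GENCODE 29 annotation, and symbols from a separate list of gene names.

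Members, lists, tests and the rule for named genes were chosen with earlier results of these data known. Named members were up to 3 per complex and pair of days called with the same sign with both guides (smallest larger p), up to 2 per complex called against its majority, the 2 with the smallest p in each comparison of guides without a call, and the highest and lowest per length in each complex. COX7C, COX6C, COX5A, NDUFB8, NDUFB10, NDUFA12, NDUFA5, ATP5F1A and ATP5PB, and values of SDHB, SDHD, CYC1, UQCRC1, NDUFS1 and NDUFA4 outside that rule, were picked after their values were seen. Replicate numbers did not pair samples. Not every call in the other lists is reported here.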

Additional observations from a re-analysis of the deposited data

Results flagged for a closer look

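For each group of 6 libraries, 42 searches in all looked for an extreme value in the share of counts taken by all members, by the mitochondrially encoded subunits and by each complex, by the gap to the next library over the group's range, and 4 values stood apart. Chance flags about 1 in 20 groups. Library 1 of sgControl day 6 replicate 1 held 3.0745% of its counts in the mitochondrially encoded subunits, where the remaining 5 of the group held 4.264% to 4.594%, and 0.0658% in complex IV members, against 0.0544% to 0.0578%. Library 1 of sgRELA day 6 replicate 1 held 3.9497% in the mitochondrially encoded subunits, against 4.604% to 4.889%. Library 2 of sgRELA day 7 replicate 2 held 0.1858% in complex V members, against 0.1971% to 0.2026%. The first of these libraries is 1 of the 2 with few detected genes, and without both of them 17 and 7 members were called from day 5 to day 6 and 24 and 18 from day 6 to day 7 with sgControl and sgRELA.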

How the results depend on the processing

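No named member turned direction while called under any alternative, and no member was called between guides under any of them by edgeR or DESeq2. Counts of members called are given for sgControl and sgRELA in turn. From day 5 to day 6 (15 and 5 in the text), total count scaling gave 9 in sgControl, DESeq2 gave 10 in sgRELA, library 1 alone 2 and 0, and library 2 alone 7 in sgControl, and leaving out 1 sample gave 11 to 13 and 4 to 5. From day 6 to day 7 (22 and 16), total count scaling gave 10 and 10, library 1 alone 6 and 1, library 2 alone 11 and 9, and leaving out 1 sample 13 to 24 and 8 to 12. From day 5 to day 7 (4 and 5), DESeq2, library 2 alone and omission of the 2 libraries with few detected genes each gave 8 in sgControl, library 1 alone gave 0 and 0, library 2 alone 2 in sgRELA and no filter on low counts 3 in sgRELA, and leaving out 1 sample gave 2 to 5 and 1 to 4. Single library sets hold fewer counts, and the cause of the other shifts was not tested. The members' median stayed between -0.38 and -0.19 (sgControl) and -0.17 and -0.07 (sgRELA) from day 5 to day 6 and between 0.23 and 0.39 and 0.20 and 0.31 from day 6 to day 7. Between day 5 and day 7 it ran from -0.06 to 0.13 in sgControl and from 0.06 to 0.16 in sgRELA, and between guides on day 5 from -0.14 to 0.03. Values of named members lost their call 57 times over the alternatives, mostly with a single library set, and 49 more times on leaving out 1 sample. The paragraphs on single genes do not list every call lost with a single library set. With protein-coding genes alone 13 and 5, then 21 and 16 members were called.

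Samples with the same replicate number did not deviate together (correlations of -0.11 to 0.06). With a replicate block 13 and 5 members were called from day 5 to day 6, 23 and 13 from day 6 to day 7, 3 and 4 from day 5 to day 7 and 0 between guides. It ended the calls of ATP5MC1 from day 5 to day 7 in sgControl (edgeR adjusted p 0.0784) and, in sgRELA from day 6 to day 7, of SDHA (0.0569) and NDUFB5 (0.054). The lowest count of a member in an RNA sample was 28, and no comparison of depth between scarce and abundant members was made.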
